A study of Mus musculus with 45 samples.

Results

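The retinoblastoma gene family has 3 members in the mouse, Rb1, Rbl1 and Rbl2, and their DNA copy number was measured in mammary gland tumors by array comparative genomic hybridization. The members were found by gene name: 6 of the 42235 probes on the autosomes and chromosome X carried the name of a member, 2 for each gene, and the 3 genes were 3 of 20798 gene names on the array. Each tumor DNA was hybridized with reference DNA to 1 two-colour Agilent 44K array. The 45 tumors were primary mammary tumors of female mice from 8 genetically engineered models: C3(1)-Tag, labelled C3(1)/SV40 T/t-antigens (n = 5), BRCA1-/-;p53+/-, labelled BRCA1fl/fl;p53+/-;MMTV-cre (n = 5), p53-/-, labelled p53fl/fl;MMTV-cre transplant (n = 6), MMTV-HRas, labelled MMTV-H-Ras (n = 5), MMTV-Her2/neu (n = 5), MMTV-PyMT (n = 9), MMTV-Wnt1 (n = 5), and MMTV-Myc, labelled MMTV-c-Myc (n = 5). In the models with MMTV in their name, the long terminal repeat of mouse mammary tumor virus drives the oncogene or the Cre recombinase, and in C3(1)-Tag the C3(1) promoter drives the T/t antigens. The reference was spleen DNA, given as pooled in the labels, whose other fields for that channel name normal mammary tissue. Strain and age of the mice were not in the labels.

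Rb1 encodes the retinoblastoma protein, and Rbl1 and Rbl2 encode its relatives p107 and p130. These pocket proteins bind E2F transcription factors and hold back the genes that a cell needs to enter S phase, until cyclin D and cyclin E kinases phosphorylate them. The large T antigen of SV40 binds all 3 proteins and p53. The question of the comparison was therefore whether the copy number of these genes differed between C3(1)-Tag tumors, whose oncogene acts on the proteins, and tumors of the models without it.

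Every value below is a log2 ratio of Cy3 over Cy5, taken as tumor over reference and centred on the autosomal median of its array, so that 0 is the middle of the autosomal probes and not a measured number of 2 copies. The commonest level lay between -0.26 and 0.14 on this scale over the arrays. In the labels the dyes are the other way round, with tumor DNA in Cy5 and reference DNA in Cy3. The files went against the labels: 661 of 676 autosomal intervals that the authors called had the sign opposite to Cy5 over Cy3 in their own array, and the Brca1 probe at 101340828-101340887 of chromosome 11 (mm8) averaged -3.97 ± 1.40 (SD, n = 5) as Cy3 over Cy5 among BRCA1-/-;p53+/- tumors, against -0.05 ± 0.11 (SD, n = 5) in C3(1)-Tag. The other Brca1 probe, at 101314063-101314118, was at 0.39 ± 0.29 (SD, n = 5) in the same tumors, and the Trp53 probes were at -0.10 ± 0.46 and -0.28 ± 0.22 (SD, n = 6) in p53-/- tumors, so that these 3 probes do not settle the direction. The Wnt1 probe averaged 1.06 ± 0.57 (SD, n = 5) as Cy3 over Cy5 in MMTV-Wnt1 tumors, against 0.09 ± 0.27 (SD, n = 5) in C3(1)-Tag. The median of chromosome X was above 0 as Cy3 over Cy5 in 44 of 45 arrays. With the dyes as labelled, every difference below has its sign turned and every gain becomes a loss.

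Some arrays stood apart from their labels before any result. C3(1)-Tag tumor 3 and MMTV-Her2/neu tumor 2 had nearly the same profile over 2057 autosomal bins of 1 Mb (Pearson's r = 0.960), as had C3(1)-Tag tumor 4 and MMTV-Her2/neu tumor 3 (r = 0.928). No other pair of arrays passed r = 0.850. MMTV-Her2/neu tumor 1 had r = 0.850 with MMTV-Her2/neu tumor 2 and 0.825 with C3(1)-Tag tumor 3. MMTV-Her2/neu tumor 5 had r = 0.796 with MMTV-Her2/neu tumor 3 and 0.753 with C3(1)-Tag tumor 4. Which label of each pair of like profile holds was not tested. The C3(1)-Tag values of the gene probes, their distances, the fits and the counts are given also without the 4 arrays of like profile. The Wnt1 probe was at 0.07 in MMTV-Wnt1 tumor 1 and between 1.07 and 1.5 in the other 4 tumors of that model. C3(1)-Tag tumors 3, 4 and 5 shared 1 slide that held no other model, and tumors 1 and 2 lay on slides with other models. The SD of single probes was 0.159 to 0.476 over the arrays, with a median of 0.236.

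The Rb1 probes lie on chromosome 14 of mm8 at 71972492-71972551 and 71974086-71974145, those of Rbl1 on chromosome 2 at 156838605-156838664 and 156851871-156851930, and those of Rbl2 on chromosome 8 at 93975666-93975725 and 93986862-93986921. Their place in exons or introns was not determined. Since 2 probes measure a single gene poorly, each gene is given beside its neighbourhood, the mean of the 10 nearest probes that do not carry its name. These probes spanned 0.338 Mb at Rb1, 0.268 Mb at Rbl1 and 0.296 Mb at Rbl2. The probes of 1 gene did not always run together. The median difference in size between the 2 probes of a gene over 45 tumors was 0.43 for Rb1, 0.15 for Rbl1 and 0.16 for Rbl2, and the second Rb1 probe had an SD of 0.65 over tumors where the Rb1 neighbourhood had 0.21. Over the 45 tumors, the first and second Rb1 probe followed the neighbourhood with Pearson's r of 0.631 and 0.234, the Rbl1 probes with 0.634 and 0.515, and the Rbl2 probes with 0.374 and 0.217. These correlations are descriptions over arrays that share slides and models.

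The mean of the Rb1 probes was below that of the other models in C3(1)-Tag tumors, the mean of the Rb1 neighbourhood was not, and neither difference passed its test over all tumors. The mean of the Rb1 probes in C3(1)-Tag tumors 1 to 5 was 0.28, 0.24, -0.08, -0.62 and -0.55. Tumors 1 and 2 were above 0 and the 3 tumors of the shared slide below it, and the range lay within that of the other 40 tumors, from -0.78 to 1.26 with a median of 0.26. The group mean was -0.14 ± 0.42 (SD, n = 5) against 0.23 ± 0.45 (SD, n = 40), a difference of -0.37 (two-sided exact permutation test, p = 0.0872). Without the 4 arrays of like profile it was -0.23 (exact permutation test, p = 0.391), with loess -0.21 (exact permutation test, p = 0.272), with normexp background correction -0.07 (exact permutation test, p = 0.567) and with slide as a block -0.12 (exact permutation test, p = 0.500). It passed among the arrays of the slides that hold C3(1)-Tag, at -0.52 with 5 against 6 arrays (exact permutation test, p = 0.0325), and without C3(1)-Tag tumor 1, at -0.48 (exact permutation test, p = 0.0476). The 5 against 6 arrays were pooled and not matched within slides, since the slide of tumors 3, 4 and 5 holds no other model. The slide block keeps only tumors 1 and 2 against 6 arrays. The Rb1 neighbourhood in tumors 1 to 5 was -0.07, -0.01, 0.12, 0.06 and -0.19. The groups overlapped throughout, at -0.02 ± 0.12 (SD, n = 5) against -0.02 ± 0.21 (SD, n = 40), a difference of 0.01 (exact permutation test, p = 0.944).

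The distance between the Rb1 probes and their neighbourhood was where C3(1)-Tag came closest to the threshold. It was -0.13 ± 0.43 (SD, n = 5) against 0.25 ± 0.40 (SD, n = 40), a difference of -0.38 (two-sided exact permutation test, p = 0.0528). Without the 4 arrays of like profile the difference was -0.17 (exact permutation test, p = 0.499), with loess -0.25 (exact permutation test, p = 0.149) and with normexp background correction -0.08 (exact permutation test, p = 0.506). Among the arrays of the slides that hold C3(1)-Tag, 5 against 6 arrays, it was -0.54 (exact permutation test, p = 0.0390). With scan date as a block, 5 against 16 arrays, it was -0.37 (exact permutation test, p = 0.0475). That block weights its dates equally, and tumors 3, 4 and 5 met only MMTV-Her2/neu tumor 4 and MMTV-HRas tumor 1 in it. With slide as a block, which leaves tumors 1 and 2 against 6 arrays, the difference was -0.11 (exact permutation test, p = 0.688, where the smallest p the design allows is 0.0625). The mean of the Rb1 probes was 0.26 in tumors 1 and 2 and -0.41 in tumors 3, 4 and 5, so that the lower level lay on the shared slide, and model and slide cannot be told apart there. Leaving out 1 tumor moved the distance to between -0.50 and -0.24, and it passed without C3(1)-Tag tumor 1 (-0.50, exact permutation test, p = 0.0200) or 2 (-0.47, exact permutation test, p = 0.0292) and when any of 10 tumors of the other models was left out. The arrays within each pair of like profile were also compared, and the cause of their differences was not tested. At the Rb1 probes, C3(1)-Tag tumor 3 was at -0.08 and MMTV-Her2/neu tumor 2 at 0.27 (difference -0.35), and C3(1)-Tag tumor 4 was at -0.62 and MMTV-Her2/neu tumor 3 at 0.24 (difference -0.86). At the Rb1 neighbourhood the same pairs differed by 0.07 and 0.05 on the log2 scale.

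**Figure D1:**
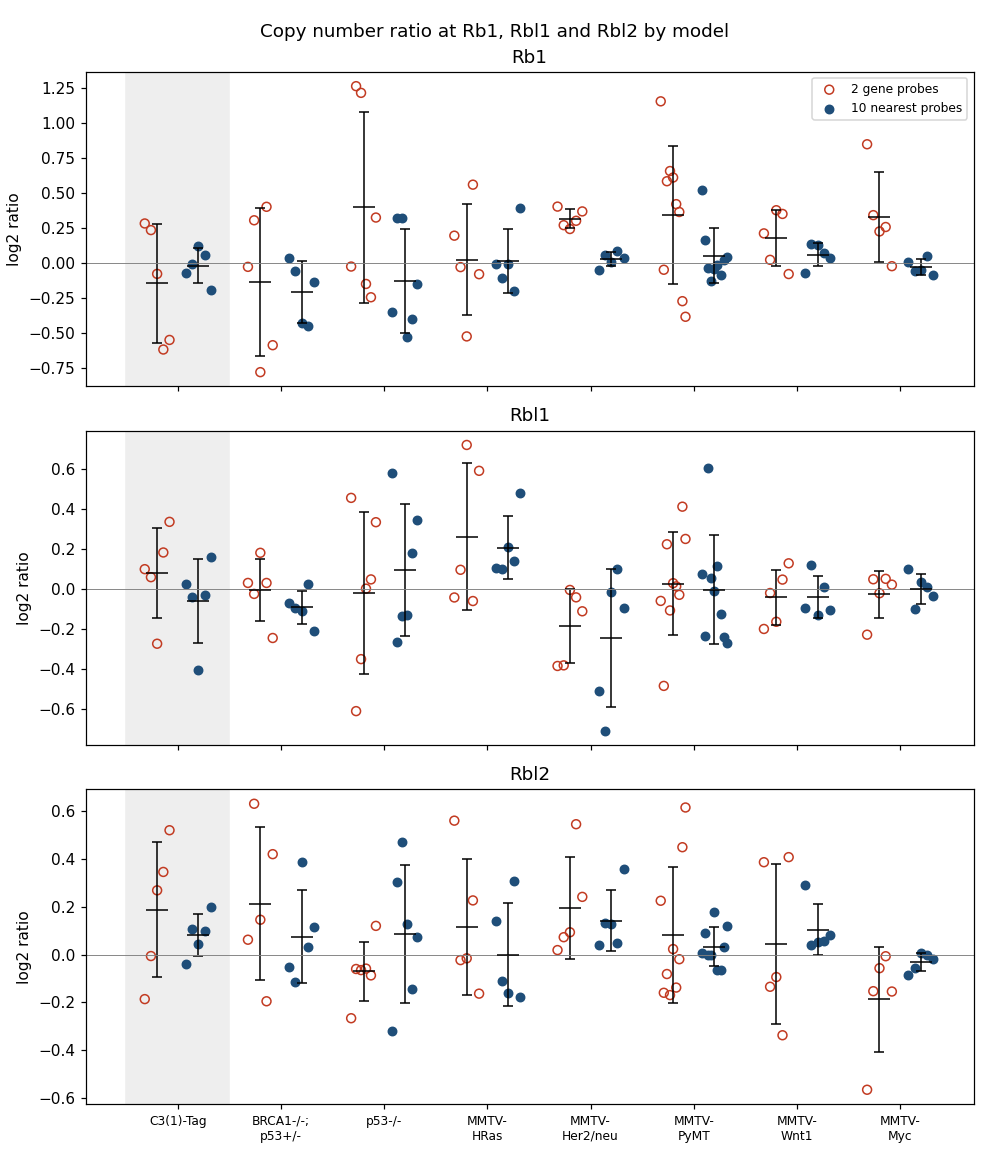
Log2 ratio (Cy3 over Cy5) of the 2 gene probes (open circles) and the 10 nearest probes (filled circles) for Rb1, Rbl1 and Rbl2, 1 pair of points per tumor, by model, with mean and SD; C3(1)-Tag is shaded. The neighbourhoods of Rb1 in C3(1)-Tag lie between -0.19 and 0.12, inside the range of the other models.

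For Rbl1, neither the gene probes nor the neighbourhood passed the test. Its probes in C3(1)-Tag tumors 1 to 5 were at 0.10, 0.06, -0.27, 0.18 and 0.34, with a mean of 0.08 ± 0.22 (SD, n = 5) against 0.00 ± 0.27 (SD, n = 40) and a difference of 0.08 (two-sided exact permutation test, p = 0.534). Tumor 3 was the single C3(1)-Tag tumor below 0. The difference was 0.15 without the 4 arrays of like profile (exact permutation test, p = 0.329), 0.17 without C3(1)-Tag tumor 3 and 0.01 without C3(1)-Tag tumor 5. Its neighbourhood was at 0.03, -0.04, -0.41, -0.03 and 0.16, with a difference from the other models of -0.05 (exact permutation test, p = 0.648). That difference turned to 0.04 without the 4 arrays of like profile (exact permutation test, p = 0.767). The gene probes lay above their neighbourhood in all 5 C3(1)-Tag tumors, by 0.14 ± 0.06 (SD, n = 5) against 0.01 ± 0.23 (SD, n = 40), and this difference of 0.13 did not pass over all tumors (exact permutation test, p = 0.214). It was 0.19 among the arrays of the slides that hold C3(1)-Tag (exact permutation test, p = 0.0303), 0.23 with scan date as a block (exact permutation test, p = 0.0200) and 0.14 with slide as a block (exact permutation test, p = 0.438). With loess it was 0.06 (exact permutation test, p = 0.548) and with normexp background correction 0.02 (exact permutation test, p = 0.893). Without the 4 arrays of like profile it was 0.11 (exact permutation test, p = 0.379). The neighbourhood includes a probe of Rpn2 at -0.18 in C3(1)-Tag and 0.30 in the others. With the 20 nearest probes the difference in distance was 0.16 (exact permutation test, p = 0.0739).

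For Rbl2, too, no difference passed over all tumors. Its probes in C3(1)-Tag tumors 1 to 5 were at -0.19, -0.01, 0.27, 0.35 and 0.52, and again the 3 tumors of the shared slide stood on 1 side of the others. The mean was 0.19 ± 0.28 (SD, n = 5) against 0.06 ± 0.27 (SD, n = 40), a difference of 0.13 (two-sided exact permutation test, p = 0.317), which was 0.23 without C3(1)-Tag tumor 1 and 0.05 without C3(1)-Tag tumor 5. It turned to -0.07 with slide as a block (exact permutation test, p = 0.562) and to -0.11 with scan date as a block (exact permutation test, p = 0.153). The neighbourhood was at -0.04, 0.11, 0.04, 0.10 and 0.20, and the difference was 0.03 (exact permutation test, p = 0.724). The distance of the Rbl2 probes from their neighbourhood was 0.11 higher in C3(1)-Tag over all tumors (exact permutation test, p = 0.408) and lower, at -0.13, with scan date as a block (exact permutation test, p = 0.0442). The arrays set against C3(1)-Tag tumors 3, 4 and 5 there were MMTV-Her2/neu tumor 4 and MMTV-HRas tumor 1, at 0.50 and 0.42. Without the 4 arrays of like profile the difference of the Rbl2 probes was 0.05 (exact permutation test, p = 0.769) and that of their distance 0.02 (exact permutation test, p = 0.923). The comparison over all 45 tumors made 9 exact tests, 3 for each gene, each repeated under the alternatives, and none of these p-values is adjusted.

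**Figure D2:**
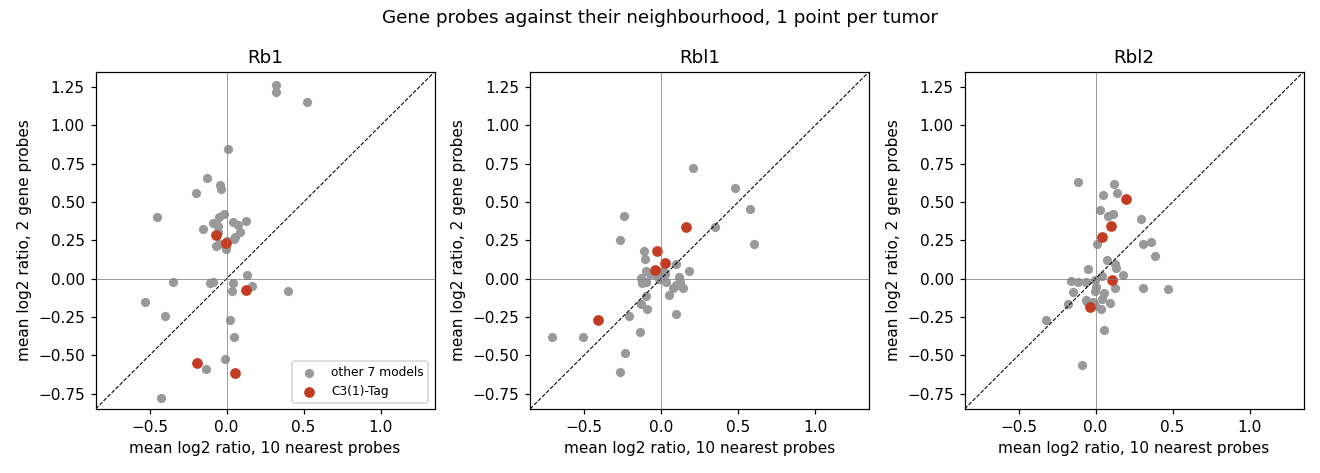
Mean log2 ratio of the 2 gene probes (vertical axis) against that of the 10 nearest probes (horizontal axis), 1 point per tumor, with C3(1)-Tag in red and the other 7 models in grey; the dashed line marks equal values. Rb1 probes reach 1.26 where the neighbourhood is at 0.32, and Rbl1 points lie closest to the line.

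Fitted with all gene names in 1 model of the 8 groups, no member passed in C3(1)-Tag against the mean of the 7 other models. Rb1 was at -0.35 (SE 0.20, 95% confidence interval -0.76 to 0.05, limma with Benjamini-Hochberg adjustment over 20798 gene names, adjusted p = 0.626). Rbl1 was at 0.08 (SE 0.12, 95% confidence interval -0.17 to 0.33, adjusted p = 0.883) and Rbl2 at 0.13 (SE 0.13, 95% confidence interval -0.12 to 0.39, adjusted p = 0.781). These intervals do not show that the levels are alike, since differences as low as -0.76 at Rb1 and as high as 0.39 at Rbl2 lie within them. Without the 4 arrays of like profile the fits gave -0.22, 0.16 and 0.04 for Rb1, Rbl1 and Rbl2 (limma, adjusted p = 1.00 for each). The first Rb1 probe gave -0.19 and the second -0.52 when each probe was fitted alone (limma, adjusted p = 0.750 and 0.601). The background of this contrast was 1 gene name of 20798 called, 0.00481%, with 1801 at an unadjusted p of at most 0.05. That name, BC020022 on chromosome 12 at -1.07 (limma, adjusted p = 0.0155), was singled out after its value was seen. Without C3(1)-Tag tumor 3, 4 or 5 the count was 0, without tumor 1 it was 4, and without tumor 2 it was 10.

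No other model had a member past the threshold in the same fit, which made 24 contrasts of 3 genes in 8 models with 0 called. The lowest unadjusted p-values were those of Rbl2 in MMTV-Myc, at -0.30 (SE 0.13, limma adjusted p = 0.395), and Rbl1 in MMTV-HRas, at 0.29 (SE 0.12, limma adjusted p = 0.160). The Rbl2 probes were at -0.57 in MMTV-Myc tumor 1 and between -0.15 and -0.01 in the other 4, and the Rbl1 probes were at 0.72 and 0.59 in MMTV-HRas tumors 3 and 5 and between -0.06 and 0.10 in the other 3. In all, 2 of 24 had an unadjusted p of at most 0.05, beside 4488 of all 20798 gene names in MMTV-HRas and 2043 in MMTV-Myc. The other models had 6421 in p53-/-, 4039 in BRCA1-/-;p53+/-, 3057 in MMTV-PyMT, 2765 in MMTV-Her2/neu, 2317 in MMTV-Wnt1 and 1801 in C3(1)-Tag. The share of all gene names called was 4.31% in MMTV-HRas, 0.63% in MMTV-Myc, 5.01% in BRCA1-/-;p53+/- and 16.5% in p53-/- tumors. It was 0.606% in MMTV-PyMT, 0.0769% in MMTV-Wnt1 and 0.0288% in MMTV-Her2/neu.

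**Figure D3:**
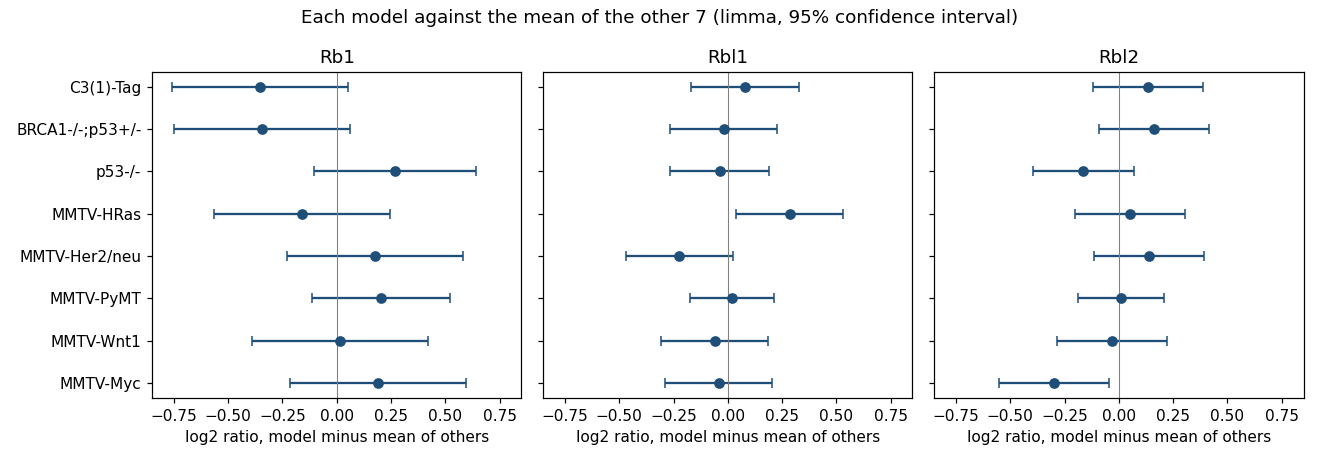
Difference in log2 ratio of the gene probes between each model and the mean of the other 7 models, from limma, with its 95% confidence interval, for Rb1, Rbl1 and Rbl2. The intervals leave out 0 only for Rbl1 in MMTV-HRas (0.29) and Rbl2 in MMTV-Myc (-0.30), and neither passed after adjustment over all gene names.

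By the neighbourhoods, the order of the models differed between the members, and no 2 neighbours in any order were apart by more than the larger of their SDs. For Rb1 it ran from MMTV-Wnt1, at 0.06 ± 0.08 (SD, n = 5), through MMTV-PyMT, MMTV-Her2/neu, MMTV-HRas, C3(1)-Tag and MMTV-Myc to p53-/-, at -0.13 ± 0.37 (SD, n = 6), and BRCA1-/-;p53+/-, at -0.21 ± 0.22 (SD, n = 5). For Rbl1 it ran from MMTV-HRas, at 0.21 ± 0.16 (SD, n = 5), and p53-/-, at 0.10 ± 0.33 (SD, n = 6), through MMTV-Myc, MMTV-PyMT, MMTV-Wnt1, C3(1)-Tag and BRCA1-/-;p53+/- to MMTV-Her2/neu, at -0.25 ± 0.35 (SD, n = 5). All 5 MMTV-HRas tumors were above 0 there, from 0.10 to 0.48. For Rbl2 the order ran from MMTV-Her2/neu, at 0.14 ± 0.13 (SD, n = 5), through MMTV-Wnt1, p53-/-, C3(1)-Tag, BRCA1-/-;p53+/-, MMTV-PyMT and MMTV-HRas to MMTV-Myc, at -0.03 ± 0.04 (SD, n = 5). MMTV-Wnt1 tumor 1, whose label is in doubt, was at 0.29 there, and the others of its model between 0.04 and 0.08. The p53-/- tumors spread most at Rb1, from -0.53 to 0.32 in the neighbourhood, and MMTV-Myc tumors least at Rbl2, from -0.08 to 0.00.

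Gains and losses were then called on segments, runs of neighbouring probes at 1 level, with a mean of at least 0.2 in size over at least 5 probes. With exact 95% intervals after Clopper-Pearson, Rb1 was lost in 5 of 45 tumors (11.1%, 3.71 to 24.1%) and gained in 4 (8.89%, 2.48 to 21.2%). Rbl1 was lost in 5 (11.1%, 3.71 to 24.1%) and gained in 5 (11.1%, 3.71 to 24.1%). Rbl2 was lost in 1 (2.22%, 0.0562 to 11.8%) and gained in 7 (15.6%, 6.49 to 29.5%). Intervals cover counting error only. The background was a loss at 10.8% and a gain at 13.5% of all autosomal probes over the 45 tumors, so that the shares of Rb1 and Rbl1 lay near it. The interval of the Rbl2 losses also covers the background, although 86.4% of autosomal probes were lost in more tumors. These counts moved with the processing. Rb1 was lost in 8 tumors without centring and in 2 at a threshold of 0.3 or by the authors' intervals, Rbl1 was lost in 3 to 7 and gained in 4 to 8 over the alternatives, and Rbl2 was lost in 0 to 7 and gained in 1 to 9, with 7 losses and 1 gain when the dyes are taken as labelled.

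Of the 5 losses of Rb1, 3 were in p53-/- tumors 1, 4 and 5, with segment means of -0.25, -0.44 and -0.38, and the others in BRCA1-/-;p53+/- tumor 3 (-0.28) and C3(1)-Tag tumor 5 (-0.28). The 4 gains were in p53-/- tumors 2 and 3 (0.33 and 0.31), MMTV-HRas tumor 5 (0.40) and MMTV-PyMT tumor 1 (0.37). By these calls the p53-/- transplant tumors held Rb1 lost in 3 and gained in 2 of 6, in a model with 26.0% of its autosomal probes lost and 28.4% gained. By the authors' intervals, Rb1 was instead lost in p53-/- tumors 4 and 5 and gained in tumors 3 and 6. Those intervals lay 0.27 above the level used here in p53-/- tumor 1 and BRCA1-/-;p53+/- tumor 3, and listed no Rb1 loss in either. The Rb1 probes themselves reached 1.26 and 1.22 in p53-/- tumors 2 and 3 and 1.16 in MMTV-PyMT tumor 1, above their neighbourhoods of 0.32, 0.32 and 0.53. In MMTV-HRas tumor 5 they were at -0.08, on the other side of 0 from a neighbourhood of 0.40.

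Rbl1 was lost in MMTV-Her2/neu tumors 1 and 2 (-0.42 and -0.44), p53-/- tumors 2 and 3 (-0.45 and -0.30) and C3(1)-Tag tumor 3 (-0.43). MMTV-Her2/neu tumor 2 and C3(1)-Tag tumor 3 are a pair of like profile, so these 2 losses cannot be taken as separate tumors. In p53-/- tumors 2 and 3 the Rbl1 segment had the same first and last probe, 139849980-181797594 of chromosome 2, and over all autosomal bins these 2 arrays had r = 0.725. Rbl1 was gained in MMTV-HRas tumors 3 and 5 (0.48 and 0.41), p53-/- tumors 1 and 6 (0.47 and 0.34) and MMTV-PyMT tumor 3 (0.27). Here gene probes and neighbourhood were on the side of the call in all 10 tumors.

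Rbl2 was lost in p53-/- tumor 1 (-0.29), where the authors' intervals listed no loss of it. It was gained in MMTV-HRas tumor 4 (0.42), MMTV-Her2/neu tumor 5 (0.37), BRCA1-/-;p53+/- tumors 5 and 3 (0.37 and 0.27), MMTV-Wnt1 tumor 1 (0.28), p53-/- tumor 3 (0.27) and C3(1)-Tag tumor 5 (0.20). In p53-/- tumor 3 the Rbl2 probes were at -0.07, on the other side of 0 from a neighbourhood of 0.47, and in the other 7 altered tumors gene probes and neighbourhood were on the side of the call. The gain in C3(1)-Tag tumor 5 is next to the threshold of 0.2, and the label of MMTV-Wnt1 tumor 1 is in doubt as given above.

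**Figure D4:**
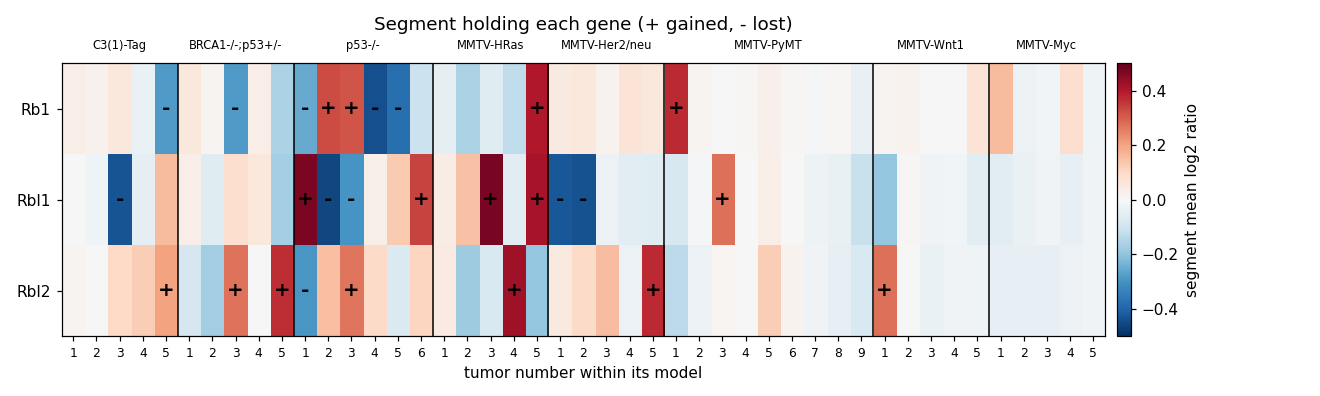
Mean log2 ratio of the segment that holds Rb1, Rbl1 and Rbl2 in each of the 45 tumors, ordered by model, with gained segments marked + and lost segments marked -. The p53-/- tumors hold 5 of the 9 altered states of Rb1, and MMTV-Myc tumors hold none of the 27 altered states.

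Most of these changes went with most of the chromosome. In 23 of the 27 altered states, at least 90% of the probes of the chromosome were in the same state as the gene. This held for all 9 of Rb1, 9 of 10 of Rbl1 and 5 of 8 of Rbl2. The state was unbroken over more than 90% of the probes in 13 of 27. Segments of 5 probes at another level bounded the Rb1 losses of p53-/- tumors 1, 4 and 5, whose runs held 41.7, 41.7 and 35.5% of the probes of chromosome 14. The 4 states with under 90% of the chromosome alike were the Rbl1 loss in p53-/- tumor 3, with 36.6% of chromosome 2 lost, and the Rbl2 gains in C3(1)-Tag tumor 5 (89.5%), BRCA1-/-;p53+/- tumor 3 (38.3%) and BRCA1-/-;p53+/- tumor 5 (29.6%). In the last, the gained segment held 12 probes over 0.747 Mb, 93239460-93986921 of chromosome 8, and ended with the second Rbl2 probe. It was the shortest unbroken run of the 27, its mean of 0.37 stood against a chromosome median of -0.09, and the neighbourhood, which reaches past its end, was at 0.12. The segment before it had 5 probes at -0.68, and that after it 472 probes at -0.25. By the authors' intervals, which lay 0.27 above the level used here, Rbl2 in this tumor was in a gain of 281 probes. None of the 9 altered states of Rb1 differed from the median of chromosome 14 by 0.2 or more.

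At least 1 member was altered in 19 of 45 tumors, 2 members in 4 and all 3 in 2. All 6 p53-/- tumors had an altered member, as had 3 of 5 MMTV-HRas, 3 of 5 MMTV-Her2/neu, 2 of 5 C3(1)-Tag, 2 of 5 BRCA1-/-;p53+/-, 2 of 9 MMTV-PyMT, 1 of 5 MMTV-Wnt1 and 0 of 5 MMTV-Myc tumors (for which the exact 95% interval reaches 52.2%). Of autosomal probes, 26.0% were lost and 28.4% gained in p53-/-, 19.0% and 13.4% in C3(1)-Tag, 19.5% and 16.8% in BRCA1-/-;p53+/-, 21.4% and 13.3% in MMTV-Her2/neu, and 3.03% and 22.4% in MMTV-HRas tumors. The shares were 0.696% and 7.31% in MMTV-PyMT, 2.02% and 6.08% in MMTV-Wnt1, and 0.149% and 2.12% in MMTV-Myc tumors. No tumor had all 3 lost, and no tumor had all 3 gained. A loss of 2 members was seen in 1 tumor, p53-/- tumor 1, in which Rb1 and Rbl2 were lost and Rbl1 gained. The commonest level of that array lay at -0.26, beside segment means of -0.25 for Rb1 and -0.29 for Rbl2. The authors' intervals listed the Rbl1 gain there and neither loss. In p53-/- tumor 3 Rb1 and Rbl2 were gained and Rbl1 lost.

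In C3(1)-Tag, 1 of 5 tumors had Rb1 lost, 1 of 5 Rbl1 lost and 1 of 5 Rbl2 gained, against 4, 4 and 6 of 40 tumors of the other models (two-sided Fisher's exact test, p = 0.461 for Rb1, 0.461 for Rbl1 and 1 for Rbl2). Without the 4 arrays of like profile these counts were 1, 0 and 1 of 3 against 4, 3 and 6 of 38 tumors (two-sided Fisher's exact test, p = 0.330, 1 and 0.439). The background in C3(1)-Tag tumors was 19.0% of autosomal probes lost and 13.4% gained, against 9.81% and 13.5% in the others. The C3(1)-Tag calls moved with the zero of the array. Centred on the commonest level of each array, Rb1 was lost in 0 of 5 C3(1)-Tag tumors and 4 of 40 others. The intervals that the authors called in C3(1)-Tag tumors 3 and 5 lay 0.39 and 0.32 above the level used here, and on their zero neither the Rb1 loss of tumor 5 nor the Rbl1 loss of tumor 3 was listed. Instead the authors' intervals held a gain of Rb1 in tumor 3, of Rbl1 in tumor 5 and of Rbl2 in both. Over all models the zero of the authors' intervals was more than 0.2 away in 6 of 43 arrays.

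Around Rb1 the nearest names were Cysltr2, a leukotriene receptor, Rcbtb2, Itm2b and the transcripts AK013540 and AK037626, at 53 to 196 kb from the centre of the Rb1 probes. The means of these probes in C3(1)-Tag lay between -0.17 and 0.08 and in the other models between -0.14 and 0.13, beside -0.08 and 0.13 at the first Rb1 probe and -0.21 ± 0.69 (SD, n = 5) and 0.32 ± 0.63 (SD, n = 40) at the second. Around Rbl1 lay Samhd1, a nucleotide hydrolase, Rpn2, a subunit of the oligosaccharyltransferase, 4922505G16Rik, AK011956, AK147227 and AK173052. Rpn2 was at -0.18 ± 0.39 (SD, n = 5) in C3(1)-Tag and 0.30 ± 0.41 (SD, n = 40) in the others, although its probe lies only 130 kb from the centre of the Rbl1 probes. Around Rbl2 lay 5 probes of Chd9, a chromatin remodeller, with Fts and 1700047E16Rik. The 2 Fts probes disagreed in C3(1)-Tag, at 0.19 and -0.44. Of the 10 nearest probes, 1 at Rb1 and 2 at Rbl2 carried no gene name.

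**Figure D5:**
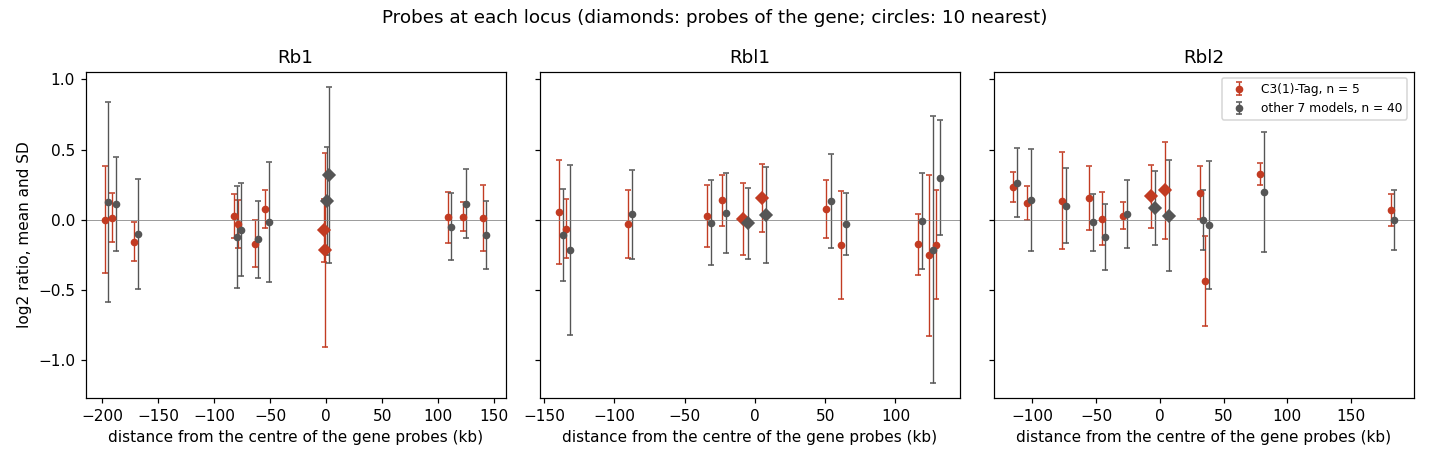
Mean and SD of the log2 ratio of each member probe (diamonds) and of the 10 nearest probes (circles) against the distance from the centre of the gene probes in kb, for C3(1)-Tag (red, n = 5) and the other 7 models (grey, n = 40). The second Rb1 probe is at -0.21 in C3(1)-Tag and 0.32 in the others, and its SD bars overlap, as do those of the other Rb1 probes.

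The partners of the pocket proteins were described by a list of 35 genes: E2F and DP factors, cyclins D and E with their kinases, kinase inhibitors, and subunits of the repressor complexes. Of these, 30 were found on the array. In C3(1)-Tag 0 of 30 were called in either direction by limma, with 2 at an unadjusted p of at most 0.05, and the median difference was -0.05 beside -0.00 over all gene names. The 2 were Ccne1, cyclin E1, at -0.32 (SE 0.15, adjusted p = 0.564), and E2f7, a repressor E2F, at -0.36 (SE 0.17, adjusted p = 0.571). These, and the genes of the list in the next sentences, were named after their values were seen. In the other models, 2 of 30 were called higher in p53-/- tumors: Ccne2, cyclin E2, at 1.53 (SE 0.34, limma adjusted p = 0.00196), and Lin9, a subunit of the DREAM complex, at 0.33 (SE 0.12, limma adjusted p = 0.0448). In MMTV-HRas Ccnd3, cyclin D3, was called higher, at 0.36 (SE 0.10, limma adjusted p = 0.0391), and E2f6, a repressor E2F, lower, at -0.51 (SE 0.15, limma adjusted p = 0.0392). None was called in the remaining 5 models, with 2 to 6 of 30 at an unadjusted p of at most 0.05, beside 2043 to 4039 of all 20798 gene names in these models. These shares of 6.67% stand beside 16.5% of all gene names called in p53-/- and 4.31% in MMTV-HRas tumors.

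The genes most like each member in pattern lay on its own chromosome. Over the 45 tumors, Rb1 was closest to Efha1, 15.1 Mb away on chromosome 14 (Pearson's r = 0.863), then Timm23 (r = 0.829) and 2200001I15Rik (r = 0.821), which lie 41.0 and 38.8 Mb away. For Rbl1, 4930556L07Rik (r = 0.906), 5.40 Mb away on chromosome 2, and AK038626 (r = 0.901) were among the closest. Rbl2 was closest to Prkaca (r = 0.836), 7.11 Mb away on chromosome 8, then LOC434280 (r = 0.814) and Cd209a (r = 0.804). Between the members, the neighbourhoods had r of -0.139 for Rb1 and Rbl1, 0.087 for Rb1 and Rbl2 and -0.406 for Rbl1 and Rbl2, each over 45 tumors. All these correlations are descriptions over tumors that share models and slides, and gene names were picked as the highest of all.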

How the data were processed

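Tumor and reference DNA of 45 tumors were hybridized to Agilent 44K arrays with mm8 coordinates, 1 array per tumor, on 18 slides scanned on 10 dates. The authors deposited the scanner output, which holds background-subtracted, dye-normalized intensity of both channels and a log10 ratio of Cy5 over Cy3 per spot, from Agilent Feature Extraction 9.5.1.1 per the file headers (10.7 in the submitters' processing notes), and a table of 5412 intervals called with ADM-2 at threshold 6, with a mean log2 ratio each. As an alternative only, the 755 intervals with 3 or more probes whose mean reached 0.2 in either direction were used. The p-value column and 8 tables of single models, which hold the authors' calls, were not used.

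Control and outlier spots were left out, spots of a probe averaged, and each log10 ratio multiplied by -1 and turned to log2, then centred on the autosomal median of its array. Gene values are means of the probes of a name. Segments came from binary splitting at a split statistic of 6 with at least 5 probes. One model of 8 groups over all gene names was fitted with limma 3.58.1 in R 4.3.3 and adjusted by Benjamini-Hochberg at 0.05. Single values were tested by exact permutation and counts by Fisher's exact test, both two-sided (Python 3.11.15, numpy 2.4.6, scipy 1.17.1, numba 0.67.0). Scripts were tested on simulated data. There the C3(1)-Tag fit recovered 27% of genes shifted by 0.4 and 87% of those shifted by 0.8, and 9.52% of its calls were false. Alternatives were other centring, normexp background correction with an offset of 50, loess, other spot filters, 20 nearest probes, slide or scan date as a block, other segment thresholds, the dyes as labelled, and leaving out each tumor or the arrays of like profile. Leaving out only one side of the like pairs was chosen after seeing the data.

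Groups came from the genotype labels, and each array was taken as a separate tumor. Names were given to the members, to the genes of their 10 nearest probes, to the 3 gene names most like each member (1 of them is not reported here), to the direction checks and to genes of the pathway list called in C3(1)-Tag, of which there were 0. BC020022 and the pathway genes in the text were named outside this rule, after their values were seen. The members and lists were chosen with earlier results of these data known. Arrays have no read depth: their number limits the precision. The median signal was 2.09 to 14.4 times background in Cy5 and 3.67 to 16.7 times in Cy3, and 96.6 to 99.8% of probes were well above background. Of the member probes, the second of Rb1 and both of Rbl2 were not well above background in 1 array each.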

Additional observations from a re-analysis of the deposited data

Results flagged for a closer look

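In 8 of 72 groups of 5, 6 or 9 tumors, 1 tumor stood apart from the others by Dixon's test at the 95% level, where chance gives about 1 in 20. The Rb1 neighbourhood was at 0.53 in MMTV-PyMT tumor 1, with the next tumor at 0.17. The Rbl1 neighbourhood was at 0.60 in MMTV-PyMT tumor 3, with the next at 0.11, and at 0.48 in MMTV-HRas tumor 5, with the next at 0.21. All 3 tumors had the gene gained.

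MMTV-Myc tumor 1 stood apart in 3 groups. Its Rbl1 probes were at -0.23, with the next tumor at -0.02, its Rbl2 probes at -0.57, with the next at -0.15, and its Rbl2 probes lay at -0.48 from their neighbourhood, with the next at -0.14. Neither gene was called lost there. The Rbl2 neighbourhood was at 0.29 in MMTV-Wnt1 tumor 1, whose Wnt1 probe was not raised, with the next tumor at 0.08. The Rbl2 probes lay 0.50 above their neighbourhood in MMTV-Her2/neu tumor 4, with the next tumor at -0.02.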

How the results depend on the processing

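No paired analysis was possible because the replicate numbers follow accession order only. Slide and scan date, which the files give, were used as blocks. No member passed in any model under any alternative of the limma fit (lowest adjusted p = 0.0993, with loess), and the exact tests of C3(1)-Tag passed under the settings given here only. With the dyes as labelled every sign turned: the probes to 0.37, -0.077 and -0.13 for Rb1, Rbl1 and Rbl2, the neighbourhoods to -0.00658, 0.0509 and -0.0265, their distances to 0.38, -0.13 and -0.11, and the fits to 0.35, -0.0791 and -0.13. Rbl2 was then lost in 7 and gained in 1.

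The Rb1 neighbourhood, at 0.01, turned to -0.00236 with density-peak centring, -0.063 without the 4 arrays of like profile, -0.0659 without the C3(1)-Tag arrays among them, -0.00382 with slide and -0.0211 with scan date as a block, and -0.0125 with 20 probes. The Rbl1 neighbourhood turned to 0.0368 without the 4 arrays and 0.0555 without the C3(1)-Tag arrays among them. With normexp the Rbl1 probes turned to -0.0191 and their fit to -0.0104. Rbl2 turned with slide as a block to -0.071 (probes), -0.0273 (neighbourhood) and -0.0437 (distance), and with scan date to -0.11 (probes) and -0.13 (distance, exact p = 0.0442). Among the slides that hold C3(1)-Tag, the Rb1 probes (-0.52, exact p = 0.0325), the Rb1 distance (-0.54) and the Rbl1 distance (0.19) passed, and with scan date as a block the Rb1 (-0.37) and Rbl1 distance (0.23). The causes were not tested.

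Leaving out 1 tumor gave -0.48 to -0.25 for the Rb1 probes (passing without C3(1)-Tag tumor 1, exact p = 0.0476), -0.0289 to 0.0507 for their neighbourhood and -0.50 to -0.24 for the distance, which passed without BRCA1-/-;p53+/- tumor 1, 3 or 5, C3(1)-Tag tumor 1 or 2, MMTV-HRas tumor 3 or 5, MMTV-PyMT tumor 2, 8 or 9 or MMTV-Wnt1 tumor 2 or 5. The Rbl1 neighbourhood ran from -0.11 to 0.0362 and the Rbl2 neighbourhood from -0.00268 to 0.0568. Genes called in C3(1)-Tag ran from 0 to 10, and were 0 with normexp, slide or scan date as a random block, and without the 4 arrays or the C3(1)-Tag arrays among them.

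Rb1 was lost in 8 tumors without centring, in 2 at a threshold of 0.3 and in 2 by the authors' intervals. Rbl1 was lost in 3 and gained in 8 by those intervals, and lost in 3 without the 4 arrays. Rbl2 was lost in 4 without centring and 0 at 0.3, and gained in 4 with normexp and 3 at 0.3.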
